A study of Mus musculus with 8 samples.

Results

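The 10 genes described here belong to the p53 response and to regulated cell death, and they were read in 8 Lewis lung carcinoma (LLC) tumors. LLC is a mouse lung cancer line, here grown under the skin of female C57BL/6J mice aged 6 to 8 weeks, and whole tumors were taken at day 12 for bulk RNA-seq. The genes were the rows of the raw count table whose Ensembl identifiers map to Trp53, Cdkn1a, Mdm2, Ccng1, Bax, Bbc3, Mlkl, Ripk3, Casp1 and Gsdmd, which is 10 of the 55487 genes in the table, and each had 1 row. Of the tumors, 4 grew from wild-type cancer cells and 4 from cancer cells labelled Ago2 knock-out (ΔAgo2). The study asked how Argonaute 2 (Ago2), the protein that carries small RNAs to their target transcripts, bears on tumor growth. The ΔAgo2 cells were made with a lentiviral CRISPR guide and are a single-cell clone, so the genotype and the clone cannot be told apart. The mice were unmodified, and host cells inside both kinds of tumor keep Ago2. All 8 libraries carried batch label 1.

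p53, the product of Trp53, is a transcription factor that is held low by the ubiquitin ligase Mdm2, itself a p53 target, and is stabilised by DNA damage and other stress. Once active it raises Cdkn1a (p21), which halts the cell cycle, and the BCL-2 family genes Bax and Bbc3 (PUMA), which open the mitochondrial membrane in apoptosis. Necroptosis is another route to cell death, in which the kinase Ripk3 phosphorylates Mlkl and Mlkl ruptures the plasma membrane. In pyroptosis, inflammasomes activate caspase-1 (Casp1), which cuts gasdermin D (Gsdmd) into a pore-forming fragment. Both of the latter routes release cell contents and are known to draw in immune cells.

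The p53 binding sequence in the promoters is shown first, since Cdkn1a is the gene with the smallest p-value of the 10. A full p53 element, taken as a pair of p53 half-sites of 10 bases with at most 13 bases between them on either strand, was found in 0.0731% of 32851 RefSeq promoter windows (GRCm38.p6, 250 bases before to 50 after the start). A single half-site was found in 8.36% of the windows. Of the 9 genes that had an entry, 5 held a half-site and 1, Cdkn1a, held a full element. The motif search was chosen after the expression values were seen, and a match is a description of the letters only. The stretches lie 5′ to 3′ on the strand of the gene, with half-sites in capitals and 10 bases on each side. Bases that come close to a half-site without matching it were left in lower case, as directly after the second half-site of Cdkn1a. The capitals therefore need not mark the bases that p53 binds.
Cdkn1a: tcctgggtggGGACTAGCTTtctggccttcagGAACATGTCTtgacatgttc
Mdm2: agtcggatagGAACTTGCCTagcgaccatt
Ccng1: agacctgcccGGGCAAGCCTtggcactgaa
Bax: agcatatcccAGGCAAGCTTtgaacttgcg
Trp53: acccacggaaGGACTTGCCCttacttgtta
The Cdkn1a stretch is chr17:29090896-29090947 on the plus strand, with 12 bases between its half-sites, and lies before the first of its 2 annotated starts, which are 2790 bases apart. The others are chr10:117710925-117710954 (minus strand, Mdm2), chr11:40755452-40755481 (minus strand, Ccng1), chr7:45467080-45467109 (minus strand, Bax) and chr11:69580274-69580303 (plus strand, Trp53). No half-site was found in the windows of Bbc3, Mlkl, Ripk3 or Casp1.

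Library depth ran from 7903288 to 268564145 counts, and the 4 wild-type libraries (7903288 to 52809635) were shallower on the whole than the 4 ΔAgo2 libraries (31846706 to 268564145). Ago2 transcripts were not lower in the tumors labelled ΔAgo2. They stood at 118 to 355 CPM (counts scaled to the size of the library) against 130 to 195 CPM in wild-type tumors. The transcript level therefore does not check the labels, and every direction below rests on them. For the knock-out the paper refers to a western blot of Ago2 protein in the cell lines, which was not analysed here. Stromal and immune markers were present in all tumors. The summed level of 10 macrophage markers was 1654.6 to 1918.4 CPM in wild-type and 1139.6 to 2842.8 CPM in ΔAgo2 tumors, highest in ΔAgo2 tumor 1. Wild-type tumor 3 stood apart, with 3212.4 CPM of 7 skeletal muscle markers against 215 to 439 CPM in the other wild-type tumors, and with 10.7 CPM of 6 keratinocyte markers against 166 to 561 CPM. The skeletal muscle markers were also lower in every ΔAgo2 tumor (38.9 to 177 CPM) than in any wild-type tumor, and 6 fibroblast markers summed to 806 to 1010.1 CPM in ΔAgo2 and 1011.7 to 2469.2 CPM in wild-type tumors, also without overlap. The part of these differences in the results below was not tested. In such bulk samples, fewer cells of a type and less RNA per cell cannot be told apart.

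None of the 10 genes passed the threshold between genotypes. The quasi-likelihood test of edgeR called 0 of 10 at a Benjamini-Hochberg adjusted p of 0.05, where 3.49% of the 16061 genes tested were called (1.36% higher and 2.12% lower in ΔAgo2 tumors). At an unadjusted p under 0.05 there were 3 of 10, namely Cdkn1a, Casp1 and Trp53, against 26.7% of all genes tested, a share close to that of the 10. The DESeq2 Wald test called 2 of 10, Cdkn1a and Casp1, against 13.1% of all genes it tested, and limma voom with quality weights called 1, Cdkn1a, against 27.9%. The CPM ranges of the genotypes did not overlap for 2 of 10, again Cdkn1a and Casp1, a share close to the 16.4% of all genes tested. The median log2 fold change (ΔAgo2 over wild-type) of the 10 was -0.16, beside 0.04 for all genes tested, with 4 values above 0 and 6 below.

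**Figure D1:**
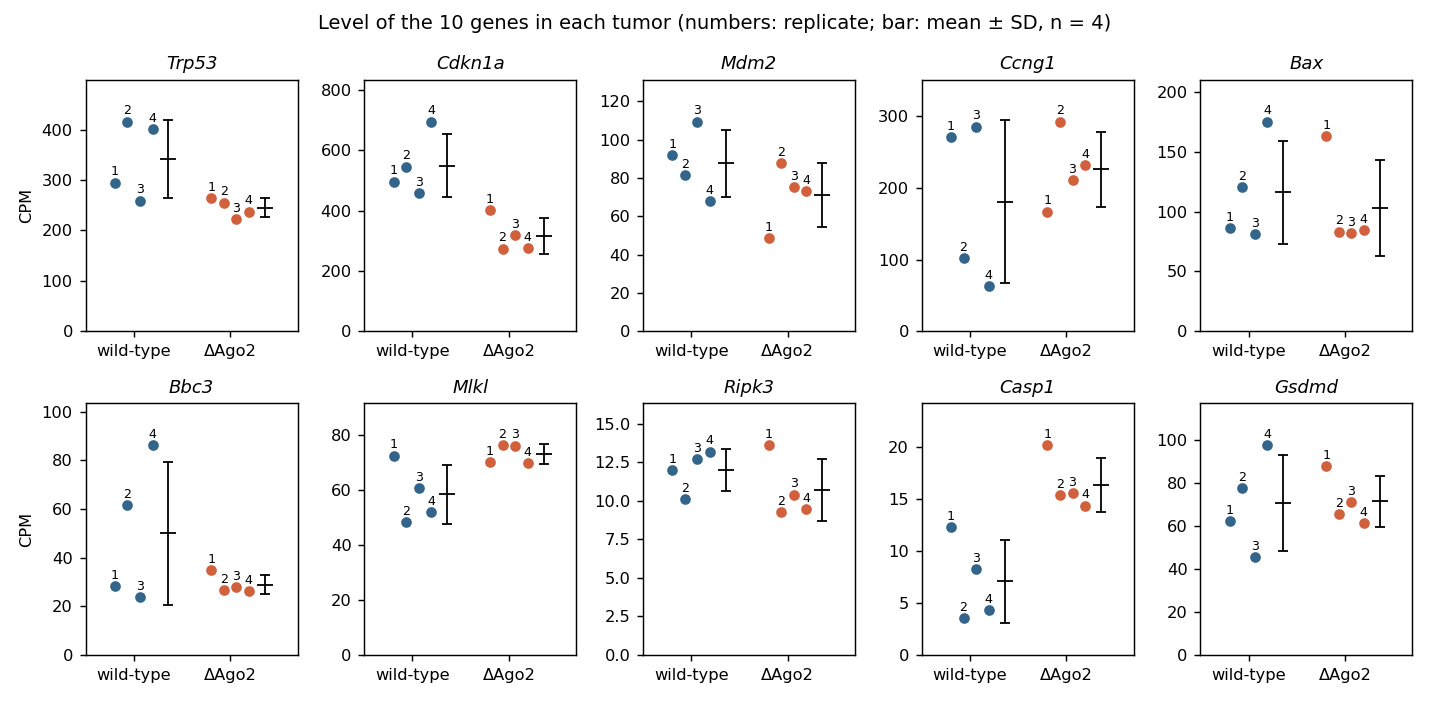
CPM of each of the 10 genes (vertical axes, linear from 0) in the 4 wild-type and 4 ΔAgo2 tumors, with the replicate number at each point and the mean ± SD as a bar. The genotypes do not overlap for Cdkn1a and Casp1, and in Ccng1, Bbc3 and Casp1 wild-type tumors 2 and 4 lie on one side of wild-type tumors 1 and 3.

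Trp53 itself (chr11:69580359-69591873, GRCm38) was well expressed in every tumor. Wild-type tumors 1 to 4 held 294.6, 415.7, 258.9 and 400.2 CPM, and ΔAgo2 tumors 1 to 4 held 264.6, 255.3, 222.5 and 237.3 CPM. The ΔAgo2 tumors lay close together, and only wild-type tumor 3 fell inside their range. The log2 fold change was -0.48 (SE 0.21, 95% confidence interval -0.94 to -0.02), which did not pass in edgeR (adjusted p = 0.17). It was -0.25 with an offset that removes each library's trend on gene GC content, and -0.24 on log2(TPM + 1). A processed copy in the genome, Trp53-ps, drew 3 to 169 counts per library, against 2792 to 67789 for Trp53.

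Cdkn1a (chr17:29090976-29100727), which encodes the cyclin-dependent kinase inhibitor p21, had the highest mean TPM of the 10 in both genotypes. In replicate order from 1 to 4, as in all such lists here, the 4 wild-type tumors held 496.2, 546.5, 459.6 and 695.5 CPM and the 4 ΔAgo2 tumors 401, 273.9, 318.6 and 276.4 CPM. Every ΔAgo2 tumor was below every wild-type tumor, with ΔAgo2 tumor 1 the nearest to them. The means were 549 ± 104 and 317 ± 59.4 CPM (SD, n = 4 each), the log2 fold change was -0.79 (SE 0.22, interval -1.27 to -0.31) and the edgeR adjusted p was 0.0684. Without ΔAgo2 tumor 1 the value was -0.93 with an adjusted p of 0.0292, and with an offset for gene length the adjusted p was 0.042. Over all genes these fits called 1793 and 1178, against 560 in the reported fit. Of 8 fits that left a library out, 1 called Cdkn1a. Over 22 alternatives in all, its log2 fold change kept its sign, from -0.93 to -0.57, and its adjusted p ran from 0.00344 to 0.228. On the deposited TPM values, which divide counts by gene length and scale each library to the same total, Cdkn1a stood at 373 to 438 in wild-type and 248 to 283 in ΔAgo2 tumors, and limma on log2(TPM + 1) gave a log2 fold change of -0.57 (adjusted p = 0.107). A provisional gene model on the other strand, AC167363.2, shares 273 exonic bases with Cdkn1a and drew 1 to 58 counts.

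The remaining p53 targets with a role in feedback and the cell cycle did not separate the genotypes. Mdm2, the ligase that degrades p53, ranged from 67.8 to 109 CPM in wild-type and from 48.4 to 87.7 CPM in ΔAgo2 tumors, and its log2 fold change was -0.30 (SE 0.23, interval -0.81 to 0.21). With the GC content offset Mdm2 was at -0.57 (adjusted p = 0.0734), and on log2(TPM + 1) at -0.09. Of Ccng1, cyclin G1, the 4 wild-type tumors held 270.7, 102.3, 285.9 and 63.2 CPM and the 4 ΔAgo2 tumors 167.2, 292.8, 211 and 232.5 CPM. The spread of Ccng1 was within the wild-type group, where tumors 2 and 4 were far below tumors 1 and 3 (highest over lowest, 4.52), and all ΔAgo2 tumors lay between them apart from tumor 2, which was just above. Its log2 fold change of 0.32 (SE 0.43) turned to -0.40 once a trend on GC content was removed from each library.

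Of the first apoptosis gene, Bbc3, which encodes the BH3-only protein PUMA, the 4 wild-type tumors held 28.4, 61.5, 23.8 and 86.1 CPM and the 4 ΔAgo2 tumors 34.7, 26.6, 28 and 26.3 CPM. Wild-type tumors 2 and 4 were above all ΔAgo2 tumors while wild-type tumor 3 was below them. The log2 fold change was -0.78 (SE 0.37, interval -1.60 to 0.04, edgeR adjusted p = 0.204) and turned to 0.32 with the GC content offset. Of Bax, which forms pores in the outer mitochondrial membrane, the 4 wild-type tumors held 86.1, 120.5, 81.1 and 175.2 CPM and the 4 ΔAgo2 tumors 162.9, 83.2, 82 and 84.5 CPM. The groups overlapped, with ΔAgo2 tumor 1 near the highest wild-type tumor and the other ΔAgo2 tumors near the lowest, and the log2 fold change was -0.16 (SE 0.31). Without wild-type tumor 4 the Bax value was 0.11, and with the GC content offset it was 0.42. Of the Bax exons, 192 bases are shared with Gm45808 on the same strand, a gene at 0 counts in all libraries.

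In the necroptosis pair, the membrane-rupturing effector Mlkl had the higher TPM, and the 4 wild-type tumors held 72.4, 48.2, 60.6 and 51.9 CPM and the 4 ΔAgo2 tumors 69.9, 76.1, 76 and 69.6 CPM. The ΔAgo2 tumors lay within a narrow range, and wild-type tumor 1 fell inside it while the other wild-type tumors were below. The log2 fold change was 0.32 (SE 0.19, interval -0.09 to 0.73, edgeR adjusted p = 0.282), 0.12 with the GC content offset and 0.55 on log2(TPM + 1). Ripk3, the kinase upstream, had one of the lowest mean TPM values of the 10, with 10.1 to 13.2 CPM in wild-type and 9.26 to 13.6 CPM in ΔAgo2 tumors, and its log2 fold change was -0.16 (SE 0.22, interval -0.65 to 0.32).

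Of Casp1, the first of the pyroptosis pair, the 4 wild-type tumors held 12.3, 3.58, 8.24 and 4.3 CPM and the 4 ΔAgo2 tumors 20.2, 15.4, 15.6 and 14.4 CPM. Every ΔAgo2 tumor was above every wild-type tumor. The means were 7.1 ± 4.01 and 16.4 ± 2.61 CPM (SD, n = 4 each), the log2 fold change was 1.18 (SE 0.37, interval 0.37 to 1.99) and the edgeR adjusted p was 0.0908. The lowest values rest on few reads, 75 counts in wild-type tumor 2 and 30 in wild-type tumor 4. Without wild-type tumor 1 the log2 fold change was 1.60 with an adjusted p of 0.0353, and with the GC content offset it was 0.61 with an adjusted p of 0.295. Macrophages are known to express Casp1, and the summed macrophage markers were highest in ΔAgo2 tumor 1, as Casp1 was, and lower in ΔAgo2 tumors 2 to 4 (1139.6 to 1377.9 CPM) than in any wild-type tumor. The part of macrophage content in the Casp1 values was not tested. Gsdmd, the substrate of Casp1, ranged from 45.5 to 97.6 CPM in wild-type and from 61.3 to 88.1 CPM in ΔAgo2 tumors, and its log2 fold change was 0.02 (SE 0.25, interval -0.53 to 0.56).

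**Figure D2:**
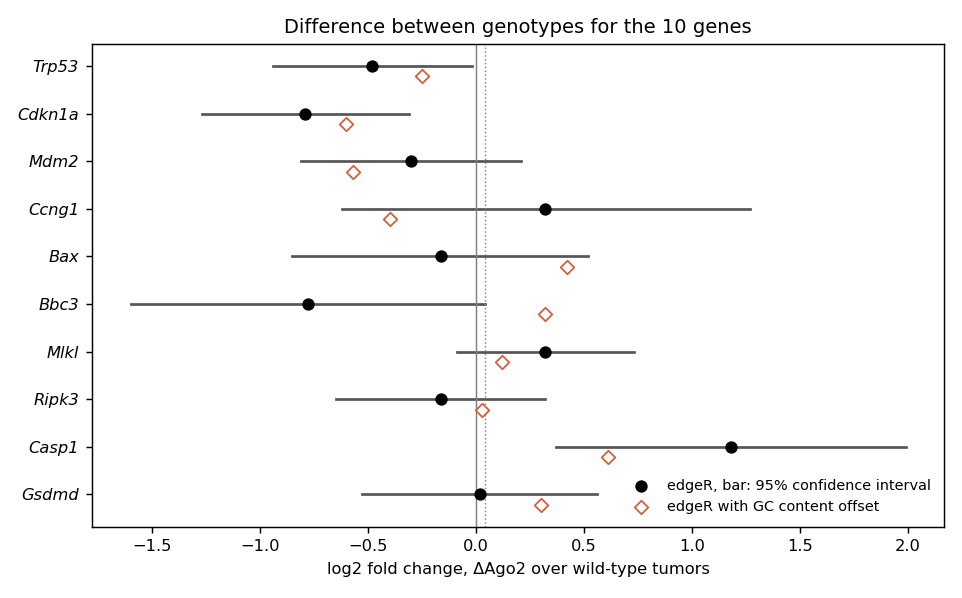
Log2 fold change (ΔAgo2 over wild-type tumors, horizontal axis) of the 10 genes from edgeR with its 95% confidence interval, and open diamonds for the fit with a GC content offset; the dotted line is the median of all genes tested. The intervals, which are not adjusted for multiple testing, lie off 0 for Trp53, Cdkn1a and Casp1, and the diamonds of Ccng1, Bax, Bbc3 and Ripk3 fall on the other side of 0.

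The levels of the 10 genes were compared with each other on the deposited TPM scale. In wild-type tumors the order was Cdkn1a (401 ± 27.2 TPM), Trp53 (221 ± 48.7), Bax (186 ± 40), Ccng1 (143 ± 98.8), Gsdmd (76.4 ± 16.1), Mlkl (67.6 ± 19.3), Bbc3 (58.7 ± 27.1), Mdm2 (46.5 ± 14.8), Ripk3 (13.7 ± 2.03) and Casp1 (6.19 ± 3.96). Ranges of neighbours in that order overlapped, except that Cdkn1a was above Trp53, Mdm2 above Ripk3 and Ripk3 above Casp1 with no overlap. In ΔAgo2 tumors Cdkn1a was again first (269 ± 16.8 TPM), but its range overlapped that of Ccng1 (206 ± 83.3). Casp1 (15.8 ± 1.6 TPM) and Ripk3 (14.1 ± 0.755 TPM) were the last there, and Casp1 was above Ripk3 in 4 of 4 tumors although their ranges overlapped.

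Within each genotype the tumors differed from each other across many of the 10 genes. Wild-type tumors 2 and 4, the shallowest of that genotype, were both above wild-type tumors 1 and 3 for 5 of 10 genes (Trp53, Cdkn1a, Bax, Bbc3 and Gsdmd) and both below for 4 (Mdm2, Ccng1, Mlkl and Casp1). The same holds for many genes, with 28.8% of all genes tested above and 34.3% below, and the exons of the former had a median GC content of 55.7% and those of the latter 45.6%. Among the 10, the difference ran from -1.79 (log2 CPM) in Ccng1, with 39.5% GC, to 1.48 in Bbc3, with 67.1% GC. ΔAgo2 tumor 1 was above the other ΔAgo2 tumors for 7 of 10 genes and below them for 2, Mdm2 and Ccng1, against 38.7% and 43.2% of all genes tested. The groups were not the same in both genotypes, since Casp1 was below in wild-type tumors 2 and 4 and above in ΔAgo2 tumor 1.

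Correlations of log2 CPM centred on each genotype, over the 8 tumors, were above 0 for 22 of the 45 pairs, with a median of -0.11. They ran from 0.62 to 0.95 for the 10 pairs among Trp53, Cdkn1a, Bax, Bbc3 and Gsdmd, and from -0.98 to -0.64 for the 10 pairs of those genes with Mdm2 or Ccng1, genes grouped here after the pattern was seen. The pairs among Mlkl, Ripk3, Casp1 and Gsdmd ran from -0.53 to 0.90, the highest being Mlkl with Casp1. Casp1 was below 0 with each of Trp53, Cdkn1a, Bax, Bbc3 and Gsdmd, from -0.76 (Bbc3) to -0.28 (Cdkn1a). It was above 0 with Mdm2 (0.23) and Ccng1 (0.75). Ripk3 ran from -0.11 with Trp53 to 0.66 with Cdkn1a over those same genes, and was below 0 with Mdm2 (-0.62) and Ccng1 (-0.18). The points share libraries, depth and the trend on base composition, and the values are a description only. Among the 9237 other genes with a mean of at least 10 CPM, those most like Cdkn1a were Cisd3 (r = 0.996), Tmem147 (0.993) and Sgf29 (0.991), and those most like Mlkl were Ppp1r7 (0.972), Igsf6 (0.968) and the pseudogene Gm6548 (0.961). Across all genes tested, the log2 fold change between genotypes fell with GC content (Spearman rho -0.572 across genes, which are not independent replicates). Among the 10 it was 1.18 in Casp1 with 41.1% GC and -0.78 in Bbc3 with 67.1% GC. Other members departed from that order, with 0.32 in Ccng1 (39.5% GC, the lowest), -0.79 in Cdkn1a (53.7%), 0.02 in Gsdmd (54.7%) and -0.16 in Bax (59%). The part of base composition and depth in these differences was not tested beyond the offset.

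**Figure D3:**
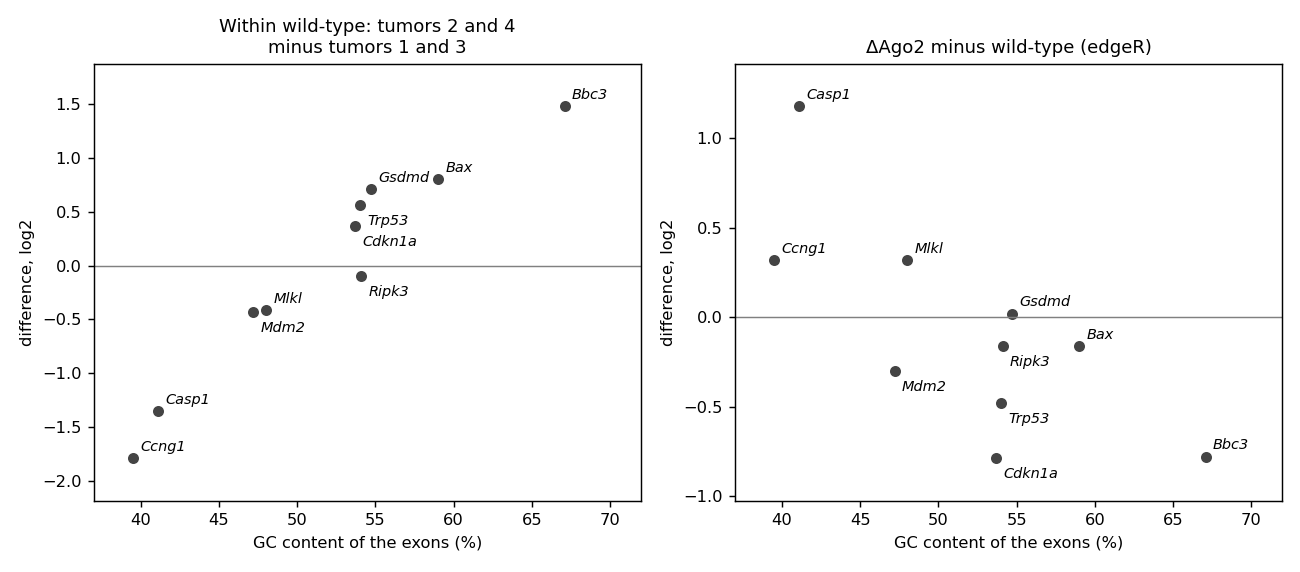
Exonic GC content (horizontal axes, %) of the 10 genes against the log2 CPM difference between wild-type tumors 2 and 4 and wild-type tumors 1 and 3 (left) and against the edgeR log2 fold change between genotypes (right). On the left the values climb from -1.79 in Ccng1 to 1.48 in Bbc3, and on the right Casp1 lies highest at 1.18 and Cdkn1a lowest at -0.79.

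The other genes of these pathways were read from 7 lists of 121 genes, of which 119 passed the count filter. Of these, 9 (7.56%) were called, 8 higher and 1 lower in ΔAgo2 tumors. Over all genes tested 3.49% were called, 1.36% higher and 2.12% lower. Of 28 further p53 targets, 1 was called (3.57%), a share close to that of all genes tested. Their median log2 fold change was -0.02, with 13 above 0 and 15 below. The called gene was Trp53cor1 (lincRNA-p21), a long noncoding RNA known as a p53 target. Its levels were low, and the 4 wild-type tumors held 2.55, 2.77, 3.51 and 3.73 CPM and the 4 ΔAgo2 tumors 0.78, 1.39, 1.34 and 0.991 CPM. Every ΔAgo2 tumor was below every wild-type tumor, and the log2 fold change was -1.47 (SE 0.33, interval -2.20 to -0.74, edgeR adjusted p = 0.0403), and -0.72 on log2(TPM + 1), where it was not called (adjusted p = 0.141). It is transcribed from the strand opposite to Cdkn1a, and its gene (chr17:29057430-29079179) starts 11797 bases from the first base of Cdkn1a, so that the genes point away from each other. The genotypes also did not overlap for Fdxr (-1.20) and Ephx1 (-0.41), which were lower, and for Ddb2 (0.52) and Apaf1 (0.82), which were higher. These were named after their values were seen, and none was called. With Trp53cor1, 3 of the 28 targets were lower and 2 higher without overlap, a share close to the 16.4% of all genes tested.

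Of the 3 other genes tested within 100000 bases of Cdkn1a, none was called. The splicing factor gene Srsf3 had a log2 fold change of 0.85 (edgeR adjusted p = 0.0722), the kinase gene Stk38 had 0.28, and Rab44 had -0.71.

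Of 15 p53 regulators and relatives (kinases, ubiquitin ligases, a deubiquitinase, a phosphatase, cofactors and the paralogs Trp63 and Trp73), 14 passed the filter and 0 were called by edgeR, 6 had an unadjusted p under 0.05 (26.7% over all genes tested) and 4 were called by the DESeq2 Wald test (13.1% over all genes). Their median was 0.53 with 13 of 14 above 0, and 0.18 with 9 of 14 above 0 under the GC content offset. The smallest p-values belonged to Hipk2, a kinase that phosphorylates p53 (1.01, adjusted p = 0.0806), and Atm, the DNA damage kinase (1.62, adjusted p = 0.0868), and ΔAgo2 tumor 1 lay within the wild-type range for both. Cdkn2a, which encodes the Mdm2 inhibitor Arf, was under the filter. Of 15 cell cycle genes known to fall when p53 and p21 are active, 11 were above 0. Their median was 0.59 (0.22 with 14 above 0 under the GC content offset). The 1 called (6.67%, against 3.49% of all genes tested) was the mitotic cyclin gene Ccnb2 (0.84, SE 0.18, adjusted p = 0.0358). Its range was 58.2 to 74.7 CPM in the wild-type group and 100.9 to 137.2 CPM in the ΔAgo2 group, with no overlap.

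Among 16 other BCL-2 family genes, 15 passed the filter, with Hrk under it. Of these, 2 were called (13.3%, against 3.49% of all genes tested), both BH3-only proteins that start apoptosis. Bmf rose from 8.6 ± 0.833 to 17 ± 2.7 CPM (log2 fold change 0.99, SE 0.21, edgeR adjusted p = 0.0344). Bcl2l11 (BIM) rose from 49.8 ± 8.03 to 98.5 ± 24.4 CPM (0.98, SE 0.23, adjusted p = 0.0435). Bbc3 and Bax, of the same family, had values below 0 in the same fit and above 0 with the GC content offset. Of 18 caspases, adaptors and inhibitors of apoptosis, 15 were above 0 with a median of 0.20, and 1 (5.56%) was called. Under the GC content offset 10 of 18 were above 0 with a median of 0.23, and 3 were called, where 661 of all 16061 genes tested were called. The gene called in the reported fit was Casp2 (0.87, SE 0.20, edgeR adjusted p = 0.0444), a caspase that acts near the top of some apoptotic cascades.

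Around Mlkl and Ripk3, 1 of 10 further necroptosis genes was called, against 3.49% of all genes tested. The called gene was Zbp1, a sensor of Z-form nucleic acids that activates Ripk3 and is known to be induced by interferon. Of Zbp1, the 4 wild-type tumors held 34, 25.6, 23.3 and 27.4 CPM and the 4 ΔAgo2 tumors 104.7, 58, 65.6 and 46.9 CPM. Every ΔAgo2 tumor was above every wild-type tumor, with tumor 1 the highest, and the log2 fold change was 1.32 (SE 0.26, edgeR adjusted p = 0.0278). The list's median was 0.27, with 7 of 10 above 0, and 0.11 with 8 above 0 under the GC content offset.

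Around Casp1 and Gsdmd, 3 of 19 inflammasome and pyroptosis genes were called (15.8%, against 3.49% of all genes tested), all higher. The median was 0.51 with 17 of 19 above 0 (0.23 with 13 above 0 under the GC content offset). Nek7, the kinase that binds and licenses the NLRP3 sensor, had 73.5, 42.4, 78 and 34.8 CPM in the wild-type group and 121.4, 166.9, 125 and 179.8 CPM in the ΔAgo2 group. The genotypes did not overlap, wild-type tumors 2 and 4 were again the lowest, and the log2 fold change was 1.37 (SE 0.29, adjusted p = 0.0328). With the GC content offset the Nek7 value was 0.57 and no longer called (adjusted p = 0.0517). Naip5 (1.56, adjusted p = 0.0305) and Naip6 (2.27, adjusted p = 0.0329), sensors of bacterial flagellin, were at 1.43 to 3.67 CPM in wild-type and at 5.03 to 23.1 CPM in ΔAgo2 tumors. They are near-identical copies in 1 cluster, so reads may have been split between them and their separate values are uncertain.

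All 9 calls in the lists held without ΔAgo2 tumor 1, while none held without wild-type tumor 2 (adjusted p 0.0896 to 0.126), wild-type tumor 4 (0.06 to 0.104), ΔAgo2 tumor 2 (0.0601 to 0.147) or ΔAgo2 tumor 3 (0.0515 to 0.096). Without ΔAgo2 tumor 4, 1 of 9 held, without wild-type tumor 1, 5, and without wild-type tumor 3, 6, each in a fit with fewer samples. Over all genes these fits called 88, 661 and 934. In each of the 3 TPM fits only Zbp1 of the 9 was called; Bmf, Bcl2l11, Casp2 and Ccnb2 were not (adjusted p 0.0509 to 0.271). Bcl2l11 was also not called with total-count scaling (0.0613) or after thinning to the shallowest library (0.0585), and neither were Casp2 with total-count scaling (0.0613) and Bmf after thinning (0.0552). Trp53cor1 was not called with total-count scaling (0.0594), with no count filter (0.0593) or without wild-type tumor 3 (0.0504).

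**Figure D4:**
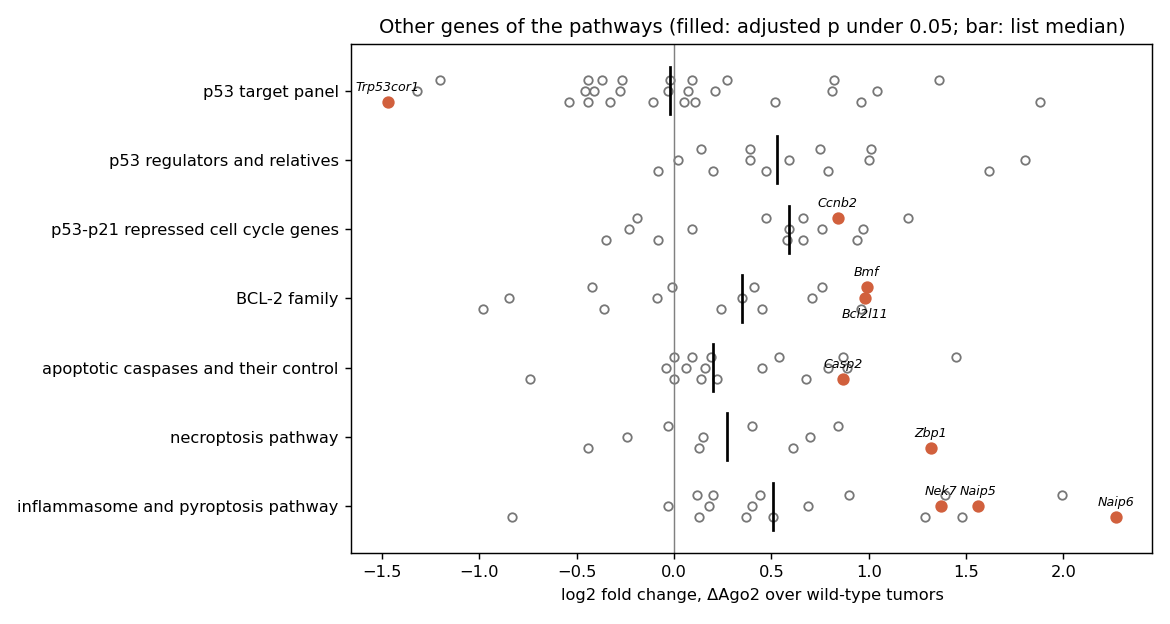
Log2 fold change (ΔAgo2 over wild-type tumors, horizontal axis) of the 119 tested genes of the 7 pathway lists, 1 row of points per list, with called genes filled and named and the list median as a bar. The 9 called genes are Trp53cor1 on the left, at -1.47, and 8 on the right, up to Naip6 at 2.27.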

How the data were processed

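Bulk RNA-seq of 8 tumors, 4 per genotype, was analysed. The authors deposited raw gene counts and a table of TPM values, in which counts are divided by gene length and scaled to 1 total per library; the study's methods name mm10 and featureCounts, in a passage on cultured cells, and the annotation release and strand setting are not given in the sources used here. The labels describe a stranded mRNA kit. Identifiers were matched to GENCODE M21 (GRCm38), 99.29% with their version and 99.83% in all; Casp1 matched with another version of its gene model. Coordinates, GC content and shared exons are from M21, and promoter windows from RefSeq.

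Counts were filtered with filterByExpr, scaled by TMM and compared with edgeR 4.0.16's quasi-likelihood test (R 4.3.3, no covariate), with Benjamini-Hochberg adjustment over all 16061 genes tested and calls under 0.05. CPM uses TMM-scaled totals, and log2 CPM a prior count of 2. The fit was tested on simulated counts. Alternatives were DESeq2 1.42.0 (its Wald test and its size factors), limma 3.58.1 voom with quality weights, scaling by total counts, a filter of 10 counts in each library, no filter, a block on the replicate number, each library left out, thinning to the shallowest library, offsets for GC content or gene length fitted on genes averaging 50 counts or more, the block with the GC content offset, and a limma fit to log2 TPM with a pseudocount of 1 (with a minimum of 0.5 TPM in 4 libraries, or without it) or 0.1. Tables and figures were made in Python 3.11.15.

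Genes named were the 10 genes, Ago2, each called gene of a pathway list (the 2 smallest p-values where none was called), list genes under the filter, and the 3 genes most correlated with Cdkn1a and with Mlkl. Other named genes were chosen after their values were seen. The genes and lists were chosen with earlier results of these data known. Nothing states that replicates differ other than in the tumor, so p-values measure the spread between these tumors. Depth limits low genes in the shallow libraries, where 3 counts equal 0.43 CPM at most. Other experiments of the study were not analysed here.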

Additional observations from a re-analysis of the deposited data

Results flagged for a closer look

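Bax in ΔAgo2 tumor 1 stood at 162.9 CPM, while the other 3 ΔAgo2 tumors lay between 82 and 84.5 CPM. The gap was 0.969 of the group's range, above Dixon's 95% critical value for 4 samples. It was the only such value among 20 groups of 4 (10 genes in each genotype), and chance flags about 1 group in 20. On TPM, where the flag was not computed, that tumor held 227 of Bax against 193, 164 and 182, less far from the rest. It was above the other ΔAgo2 tumors for 38.7% of all genes tested, with a median GC content of 52.8%, and Bax has 59%. The same tumor had the highest summed macrophage markers, at 2842.8 CPM where the rest of its group had 1139.6 to 1377.9 CPM. It also had 40.3 CPM of T and NK cell markers against 9.69 to 13.2 CPM. The part of these differences in the Bax value was not tested.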

How the results depend on the processing

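The number of the 10 genes called was 0 in the reported fit and in most alternatives; it was 2 with the DESeq2 Wald test, 1 with limma voom and 1 with the gene length offset, and 0 to 1 when each library was left out. For the 28 p53 targets, 1 was called in the reported fit, 0 with total-count scaling, 6 with DESeq2's Wald test and 11 with voom. With no count filter 2 were called, Trp53cor1 not among them. The count was 3 with the length offset, 0 in each of the 3 TPM analyses, and 0 to 5 with each library left out. For the necroptosis and inflammasome genes the count was 4, against 8 with DESeq2's Wald test, 8 with voom, 1 in each TPM analysis and 0 to 8 with each library left out. The median log2 fold change of the 10 genes was -0.16, ran from -0.23 to -0.03 with each library left out, and was above 0 with the GC content offset (0.08), with the block and that offset (0.09) and on TPM (0.05). On TPM the median of all genes was itself 0.21 at a pseudocount of 1 and 0.28 at 0.1, but 0.03 at a pseudocount of 1 with no filter.

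With the replicate block, 0 of the 10 genes, 0 of the p53 targets and 0 of the necroptosis and inflammasome genes were called; with the replicate block and the GC content offset these counts were 0, 0 and 2. Of the 9 called genes in the pathway lists, 0 stayed called with the block (adjusted p 0.0825 to 0.168) and 4 with the block and the offset. Same-numbered tumors deviated together with correlations of -0.29 to 0.103 across genes, and no tumor correlated best with its own number. The highest was 0.325, between wild-type tumor 4 and ΔAgo2 tumor 1. These correlations also carry the trends on depth and base composition, so they cannot decide whether the numbers pair the tumors.

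Directions turned for 5 of the 10 genes. Ccng1 was -0.40 with the GC content offset and -0.34 with the block added. Bbc3 was 0.32 and 0.31 there, and Bax 0.42 and 0.39. Bax was also 0.05, 0.06 and 0.05 in the TPM analyses and -0.48 to 0.11 with each library left out, above 0 only without wild-type tumor 4. Ripk3 was 0.03 and 0.05 with those offsets and 0.04 in each TPM analysis. Gsdmd, at 0.02, was -0.01 with DESeq2 size factors, -0.07 after thinning, and -0.14 to 0.21 with each library left out, below 0 without wild-type tumor 1 (-0.03), wild-type tumor 3 (-0.14) or ΔAgo2 tumor 1 (-0.11). None of these was called. The cause was not tested. Trp53, Cdkn1a, Mdm2, Mlkl and Casp1 kept their direction in all 22 alternatives.

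Over all genes, 560 were called, against 2265 with DESeq2's Wald test, 4476 with voom, 983 with no filter, 1178 with the length offset, 70 with the block, 366 with the block and GC content offset, 153, 107 and 77 on TPM, and 88 to 1793 with each library left out. The shallowest library holds 30 counts of Casp1, and the 95% interval of its log2 fold change, 0.37 to 1.99, shows how little 4 tumors per genotype fix the size of the difference.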
